A study of Rattus norvegicus with 6 samples.

Results

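The genes of the fibroblast growth factor (FGF), platelet-derived growth factor (PDGF) and epidermal growth factor (EGF) families were compared between islets of adult rats and islets of rats aged 10 days (P10). Members were all array probes whose RefSeq transcript carries a rat symbol beginning with Fgf or Pdgf, plus Egf, Egfr, Erbb2, Erbb3, Erbb4, Tgfa, Areg, Ereg, Btc, Hbegf, Nrg1, Hgf and Met. This gave 53 probes of 47 genes, out of 24684 probes and 13903 named genes on the array, and each gene was read at its brightest probe. Islets are the hormone-secreting cell clusters of the pancreas and were isolated with collagenase. RNA of 3 adult male rats and of 3 pools of P10 rats was labelled with Cy3 and hybridised to 1-colour Agilent arrays, 1 array per rat or pool. Strain, adult age, sex of the young rats and number of rats per pool are not given in the sources used here, and no animal is labelled as treated or genetically altered. Whole islets were used, so fewer cells of a type and less RNA per cell cannot be told apart.

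These families signal through receptor tyrosine kinases. A secreted or membrane-bound ligand pairs 2 receptor molecules, which phosphorylate each other and switch on the RAS-ERK and PI3K pathways. In the pancreas, mesenchymal Fgf10 and Fgf7 drive growth of epithelial progenitors through Fgfr2, PDGF receptors act in mesenchyme and have been tied to replication of young beta cells, and EGF receptor signalling supports beta cell growth.

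Start regions are shown for 5 genes chosen after their values were seen. They are amphiregulin (Areg), the kinase-less FGF receptor Fgfrl1, the PDGF ligands Pdgfa and Pdgfd, which moved in opposite directions, and the FGF carrier Fgfbp1. The 250 bases before their RefSeq start are printed from the GRCr8 assembly, as examples of genes that rose and fell, with motif matches in capitals. The windows are chr14:17265642-17265891 (minus strand) for Areg, chr14:1166335-1166584 (minus strand) for Fgfrl1, chr12:20759116-20759365 (plus strand) for Pdgfa, chr8:11773258-11773507 (plus strand) for Pdgfd and chr14:71318633-71318882 (plus strand) for Fgfbp1.
Areg: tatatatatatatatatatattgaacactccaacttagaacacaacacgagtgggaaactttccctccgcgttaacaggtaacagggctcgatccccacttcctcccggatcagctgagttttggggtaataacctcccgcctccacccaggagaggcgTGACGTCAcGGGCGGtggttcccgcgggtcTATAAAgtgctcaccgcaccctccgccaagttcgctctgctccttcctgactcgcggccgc
Fgfrl1: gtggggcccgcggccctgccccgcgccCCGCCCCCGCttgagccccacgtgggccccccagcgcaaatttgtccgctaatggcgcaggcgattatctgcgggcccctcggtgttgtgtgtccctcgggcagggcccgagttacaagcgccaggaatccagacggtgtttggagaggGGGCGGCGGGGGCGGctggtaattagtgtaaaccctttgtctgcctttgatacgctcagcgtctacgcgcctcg
Pdgfa: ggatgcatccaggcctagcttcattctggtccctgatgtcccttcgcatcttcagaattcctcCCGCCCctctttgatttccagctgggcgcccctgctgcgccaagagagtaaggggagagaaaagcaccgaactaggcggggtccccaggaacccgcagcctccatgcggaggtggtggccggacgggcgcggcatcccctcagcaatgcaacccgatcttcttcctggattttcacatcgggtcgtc
Pdgfd: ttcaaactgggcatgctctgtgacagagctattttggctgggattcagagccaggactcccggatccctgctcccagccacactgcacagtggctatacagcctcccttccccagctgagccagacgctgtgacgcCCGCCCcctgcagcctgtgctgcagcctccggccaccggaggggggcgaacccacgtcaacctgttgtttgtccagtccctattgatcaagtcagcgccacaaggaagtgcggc
Fgfbp1: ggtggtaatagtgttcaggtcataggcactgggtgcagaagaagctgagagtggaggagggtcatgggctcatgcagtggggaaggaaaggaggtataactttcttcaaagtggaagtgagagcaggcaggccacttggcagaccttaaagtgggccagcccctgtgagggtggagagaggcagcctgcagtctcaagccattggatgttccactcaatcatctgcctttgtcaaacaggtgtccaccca

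Motifs were searched on both strands in 33469 RefSeq promoter windows, and 36 of the 47 genes matched the table. The cyclic AMP response element TGACGTCA stood in 1.59% of all windows and in 1 of the 36 genes, Areg, where it began 91 bases before the start. The TATA core TATAAA stood in 12.9% of all windows and in 4 of the 36 genes (Areg, Fgf16, Fgf21 and Fgf7). The GC box GGGCGG stood in 30.5% of all windows and in 21 of the 36 genes, among them Areg, Fgfrl1, Pdgfa and Pdgfd. The EGR motif GCGNGGGCG stood in 4.29% of all windows and in 4 of the 36 genes (Fgf8, Fgfr2, Fgfr3 and Fgfrl1), and in Fgfrl1 it overlapped the GC box. Fgfbp1, higher in adults, had none of these motifs and 0 CpG pairs, against a median of 5 CpG pairs over all windows. Areg had 18 and Fgfrl1 25. Pdgfa and Pdgfd, of opposite direction, both held a GC box and no other motif of the 4. These matches describe the letters and were not tied to any factor.

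Of the 47 genes, 36 were tested, since their probe exceeded background clearly on each array of 1 stage or both, and 25 were well above background on all 6 arrays. In adults 7 were higher and 15 lower, and 14 did not pass the test. That is 61.1% past the test, 19.4% higher and 41.7% lower, against 52.3%, 21.3% and 31.0% of all 18362 probes tested. At a change of at least 2-fold, 6 genes were higher and 12 lower, where 14.6% and 23.7% of all probes were. The median difference was -0.51 over the tested genes and -0.23 over all probes. The share higher thus lay near the background. With quantile normalization 10 genes were higher and 15 lower, where 57.2% of all probes passed, 28.4% as higher and 28.7% as lower. With every array as its own replicate 9 were higher and 17 lower, where 70.6% of all probes passed, 29.3% as higher and 41.3% as lower. Differences are adult minus P10 in log2, a level is the log2 signal with the 75th percentile of its array subtracted, and p-values are limma's, adjusted by Benjamini-Hochberg across the 18362 probes. The scanner files gave 17829 to 18731 probes well above background per array, and the number of arrays limits the precision. The 75th percentile subtracted was 10.93 to 11.36 on adult arrays and 9.92 to 9.99 on P10 arrays. The lowest well-measured level was -8.24 to -7.72 in adults and -7.25 to -6.99 at P10. Erbb4, Fgf8, Fgf11 and Fgf23, not well above background on any array, read lower in adults, Fgf23 at -9.35 against -8.73. How far this gap enters the differences of dim genes was not tested. Adult arrays 2 and 3 differed by little more than spots of 1 array do and were counted as 1 sample. P10 arrays 1 and 2 differed by less than that and were counted as 1 sample too, so n = 2 per stage. The other P10 pairs also differed by less, so these values do not set P10 array 3 apart, and the counts with every array as its own replicate stand above.

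**Figure D1:**
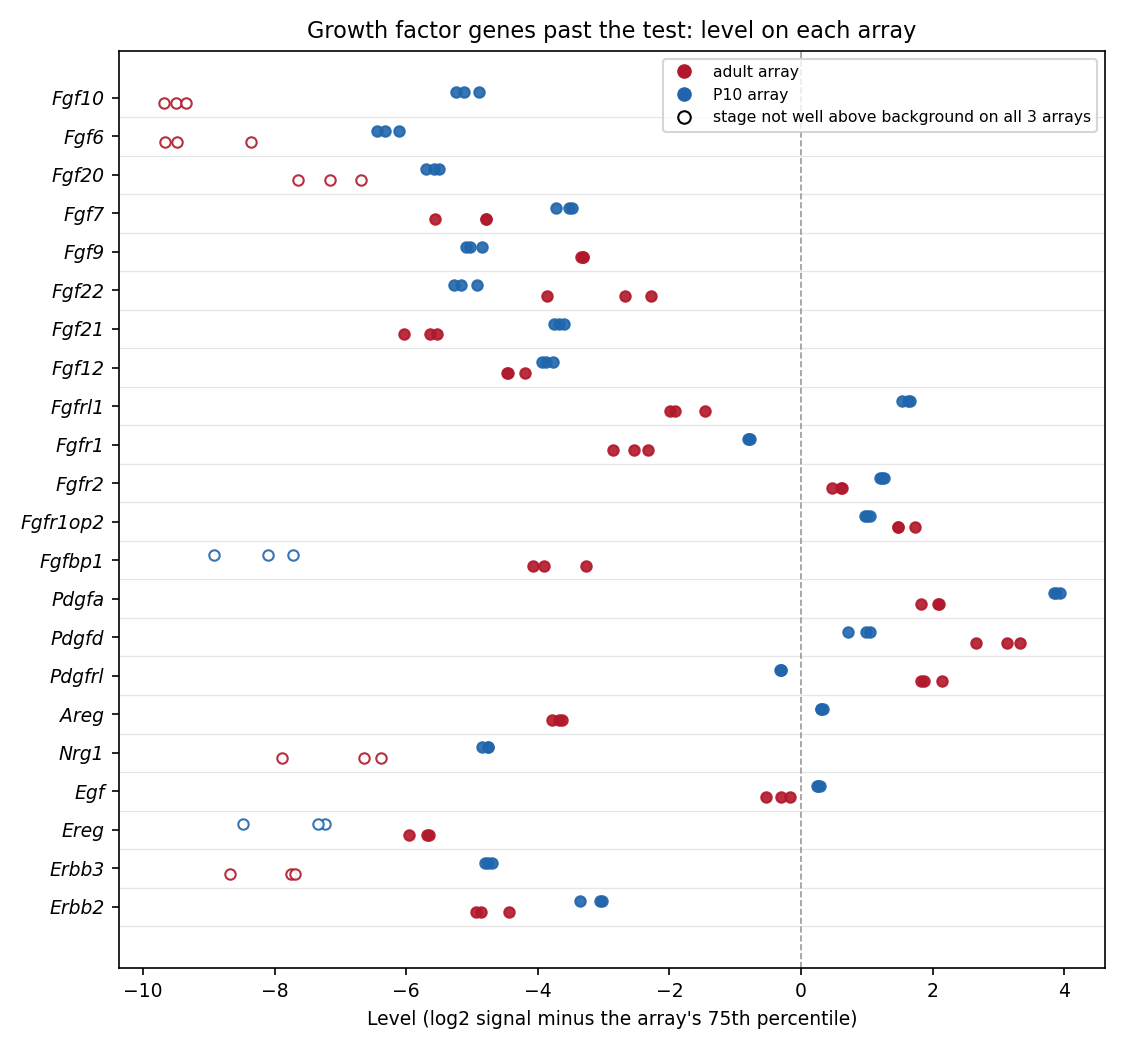
Level of each of the 22 genes past the test, on every array, as log2 signal minus the array's 75th percentile (red, 3 adult arrays; blue, 3 P10 arrays; open symbols, a stage not well above background on all 3 arrays). The colours of each gene do not overlap, and Fgf10, Fgf6 and Erbb3 were not well above background on any adult array, nor were Fgfbp1 and Ereg on any P10 array.

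Non-overlap of the 3 adult with the 3 P10 arrays was common on this array. It held for 27 of the 35 tested genes with a value on all 6 arrays and for 77.8% of all such probes. Egfr, Hbegf and Met were among the genes whose stages did not overlap and which did not pass the test.

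Among the paracrine FGF ligands, 4 fell in adults, 2 rose and 3 did not pass the test, of 9 tested out of 12. Of all probes tested 31.0% were lower and 21.3% higher. Fgf10, the mesenchymal factor for pancreatic buds, read -9.51, -9.69 and -9.35 on the adult arrays and -5.25, -5.12 and -4.89 on the P10 arrays. No adult array was well above background, so the gene is given as at least 8.06-fold higher at P10 (limma adjusted p = 0.00132). This bound depends on the background correction, since with normexp the difference was -1.27 (limma adjusted p = 0.101). At-least folds set the brighter stage against the lowest well-measured signal of each dim array, or the probe's own signal where that is higher. The adjusted p beside such a fold, here and below, is of the fitted difference and does not test the bound. That difference uses the dim stage's signals, which were not well above background. Fgf10, Fgf6, Erbb3, Fgfbp1 and Ereg entered the test through their brighter stage only.

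Fgf7, keratinocyte growth factor, which shares the Fgfr2 epithelial isoform with Fgf10, read -5.56, -4.79 and -4.79 in adults and -3.53, -3.49 and -3.72 at P10. All adult arrays lay below all P10 arrays, a difference of -1.56 (SE 0.31, limma adjusted p = 0.0208). Fgf6, best known from muscle, read -9.67, -8.36 and -9.49 in adults and -6.11, -6.32 and -6.44 at P10. It was not well above background on any adult array and was at least 3.30-fold higher at P10 (limma adjusted p = 0.00458). Fgf20, of the Fgf9 subfamily, stood at -7.64, -6.69 and -7.16 in adults and -5.58, -5.50 and -5.71 at P10. The difference was -1.66 (SE 0.29, limma adjusted p = 0.0151), with 2 of 3 adult arrays well above background. Its fall was -0.71 with quantile normalization.

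The ligands that rose were Fgf9 and Fgf22. Fgf9, which acts mainly on mesenchymal receptor isoforms, read -3.34, -3.31 and -3.31 in adults and -4.84, -5.09 and -5.04 at P10, so the adult arrays lay close together and above every P10 array. The rise was 1.68 (SE 0.13, limma adjusted p = 0.00265), or 3.20-fold. Fgf22, a relative of Fgf7 and Fgf10 known as a synapse organiser, read -3.86, -2.27 and -2.68 in adults against -5.16, -4.92 and -5.27 at P10. Its rise of 1.99 (SE 0.52, limma adjusted p = 0.0401) came with a wide spread between adult arrays. Fgf9 and Fgf22 thus moved against Fgf10 and Fgf7.

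Fgf1, Fgf3 and Fgf17 did not pass. Fgf1, a ligand for all FGF receptors, stood at -0.13 (SE 0.30, limma adjusted p = 0.743), with overlapping arrays. Fgf17, of the Fgf8 subfamily, stood just short of the threshold at -1.56 (SE 0.45, limma adjusted p = 0.0501). Fgf2, basic FGF, has a pair of probes of nearly equal brightness that disagreed. The brightest, printed as 1 spot, was well above background on 2 adult arrays only and was not tested. The other, printed as 10 spots, was well above background on each adult array but on no P10 array, and read at least 1.63-fold higher in adults (limma adjusted p = 0.0232). Fgf8 was not well above background on any array, and Fgf16 on 2 arrays of each stage.

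Of the endocrine FGFs, which travel in blood and need a Klotho co-receptor, Fgf21 was the only one tested. This metabolic hormone, also made by acinar cells, read -6.04, -5.53 and -5.64 in adults and -3.75, -3.60 and -3.68 at P10, a fall of 4.38-fold (SE 0.21 on the log2 scale, limma adjusted p = 0.00401). All P10 arrays were above all adult arrays. Fgf19, the ileal bile acid hormone, was well above background on 1 P10 array and on no adult array, and Fgf23, the phosphate hormone of bone, on none. The co-receptor Kl, Klotho, stood lower in adults at -2.06 (SE 0.40, limma adjusted p = 0.0199). It was well above background on 2 of 3 adult arrays, and the difference was -1.19 with quantile normalization.

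The intracellular FGF homologues are not secreted and bind voltage-gated sodium channels. Fgf13 stood at 0.21 (SE 0.16, limma adjusted p = 0.324) and did not pass. Fgf14 was well above background on each adult array but no P10 array, so only a bound of at least 1.49-fold higher in adults can be given, and it did not pass (limma adjusted p = 0.122). Fgf12 fell by 0.51 on the log2 scale (SE 0.14, limma adjusted p = 0.0459). With quantile normalization Fgf12 stood at -0.16 (limma adjusted p = 0.388) and Fgf14 passed as higher (limma adjusted p = 0.00189). Fgf11 was not well above background on any array.

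All 5 FGF receptor genes were well above background on all 6 arrays. In adults 3 were lower and 0 higher, where 31.0% and 21.3% of all probes were. Fgfrl1, which binds FGFs but lacks the kinase domain, read -1.457, -1.997 and -1.910 in adults and 1.63, 1.54 and 1.66 at P10. The stages lay far apart, with a difference of -3.33 (SE 0.22, limma adjusted p = 0.00206), and the same -3.33 with quantile normalization. Fgfr1, the main receptor of mesenchyme and also active in beta cells, read -2.86, -2.33 and -2.54 in adults and -0.77, -0.80 and -0.80 at P10. The difference was -1.85 (SE 0.20, limma adjusted p = 0.00491). The P10 arrays were almost level and lay above every adult array.

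Fgfr2, the receptor of Fgf7 and Fgf10 on epithelium, showed a smaller fall. It read 0.48, 0.62 and 0.61 in adults and 1.26, 1.23 and 1.20 at P10. The difference was -0.68 (SE 0.14, limma adjusted p = 0.0214). Its 6 probes, each named for another transcript, gave differences of -0.75 to -0.66 and did not disagree. Whether these probes share sequence is not told by the columns used here, so they are not 6 independent readings and separate no isoform. With median scaling Fgfr2 stood at -0.38 (limma adjusted p = 0.109).

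Fgfr3 and Fgfr4 did not pass. Fgfr3, known for restraining bone growth, read -0.97, -0.64 and -0.76 in adults and -0.67, -0.77 and -0.92 at P10. The stages overlapped, and the difference was -0.02 (SE 0.17, limma adjusted p = 0.946). Fgfr4, the receptor for endocrine FGFs in liver, read -2.21, -1.54 and -1.59 in adults and -1.55, -1.63 and -1.81 at P10. The difference was -0.19 (SE 0.28, limma adjusted p = 0.594). Both sets of arrays overlapped.

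Fgfbp1, a secreted carrier that frees FGFs from heparan sulfate, rose. It read -3.27, -3.91 and -4.08 in adults and -7.72, -8.11 and -8.93 at P10. No P10 array was well above background, which makes it at least 11.2-fold higher in adults (limma adjusted p = 0.00401). Fgfbp3, a relative, stood at -0.50 (SE 0.17, limma adjusted p = 0.0747) and lacked a value on adult array 3, whose spot was marked as non-uniform. Fgfr1op2, a cytoskeletal gene named for a fusion with Fgfr1 and not a ligand or receptor, rose by 0.61 (SE 0.16, limma adjusted p = 0.0396).

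The PDGF ligands split. Pdgfa, the ligand of the alpha receptor, read 1.83, 2.09 and 2.09 in adults and 3.94, 3.88 and 3.84 at P10. Every P10 array lay above every adult array, a fall in adults of 3.77-fold (SE 0.16 on the log2 scale, limma adjusted p = 0.00299). Pdgfd, a ligand of the beta receptor that must be cut by a protease to act, went the other way. It read 2.66, 3.13 and 3.32 in adults and 1.06, 0.99 and 0.71 at P10, a rise of 4.23-fold (SE 0.26 on the log2 scale, limma adjusted p = 0.0071). Both directions were also found with quantile normalization, at -1.86 and 2.07.

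Pdgfb and Pdgfc did not pass, at 0.06 (SE 0.23, limma adjusted p = 0.842) and -0.03 (SE 0.18, limma adjusted p = 0.887), and their arrays overlapped. Pdgfb was well above background on each adult array and on 1 P10 array, and with quantile normalization it stood at 1.02 (limma adjusted p = 0.0132).

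Pdgfrl, a receptor-like gene without a kinase domain, rose. It read 2.15, 1.87 and 1.83 in adults and -0.30, -0.31 and -0.32 at P10. The rise was 2.32 (SE 0.17, limma adjusted p = 0.00233), or 4.98-fold. The kinase-less genes of both receptor families thus moved in opposite directions, Fgfrl1 down and Pdgfrl up.

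The receptors proper, Pdgfra and Pdgfrb, were not tested. Each is printed as 1 spot, and the scanner software marked that spot as non-uniform on 4 arrays for Pdgfra and 3 for Pdgfrb, although the signals were bright, from 1640 to 3553 intensity units for Pdgfrb. With marked spots kept, an alternative added after the values were seen, Pdgfra read 0.10, 0.31 and 0.25 in adults and 1.52, 1.52 and 1.51 at P10. That is a difference of -1.32 (SE 0.14, limma adjusted p = 0.00482). Pdgfrb, the receptor of pericytes, read 0.40, 0.41 and 0.24 in adults and 0.81, 0.70 and 0.71 at P10. The difference was -0.37 (SE 0.13, limma adjusted p = 0.076). Neither gene's stages overlapped. Pdgfra lay in the direction of its ligand Pdgfa, while Pdgfrb, which did not pass, lay opposite to its ligand Pdgfd.

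**Figure D2:**
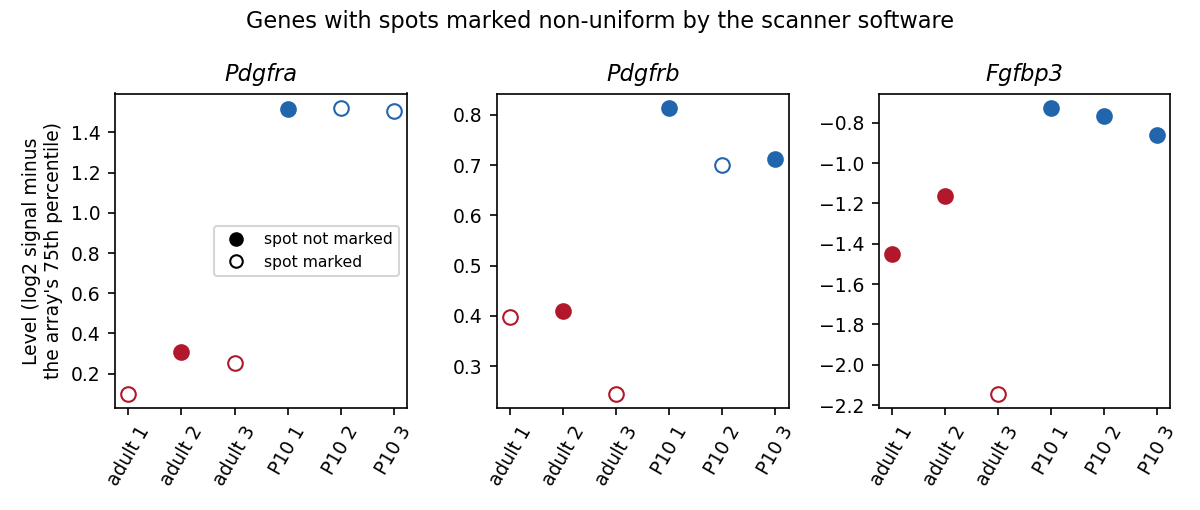
Levels of Pdgfra, Pdgfrb and Fgfbp3 on every array with marked spots kept, as log2 signal minus the array's 75th percentile, each panel on its own vertical scale (red, adult; blue, P10; open symbols, spot marked as non-uniform). Open and filled symbols of a stage lie close together for Pdgfra, while for Fgfbp3 the 1 marked spot at -2.14 lies below the other adult arrays.

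Of the EGF family ligands, 3 were lower in adults, 1 higher and 2 did not pass, where 31.0% of all probes were lower and 21.3% higher. Areg, amphiregulin, a ligand of Egfr shed from epithelium, read -3.69, -3.63 and -3.79 in adults and 0.30, 0.31 and 0.33 at P10. The arrays of each stage nearly coincided, and the fall was 16.2-fold (SE 0.13 on the log2 scale, limma adjusted p = 0.00132). Ereg, epiregulin, another ligand of Egfr and Erbb4, went the other way. It read -5.65, -5.69 and -5.96 in adults and -8.48, -7.24 and -7.34 at P10. No P10 array was well above background, and Ereg was at least 2.62-fold higher in adults (limma adjusted p = 0.0071). The rise of Ereg depended on the background correction, since normexp turned it to -0.26 (limma adjusted p = 0.479).

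Nrg1, neuregulin 1, the ligand of Erbb3 and Erbb4, read -7.90, -6.64 and -6.38 in adults and -4.75, -4.76 and -4.85 at P10. The difference was -2.40 (SE 0.51, limma adjusted p = 0.0245), and adult array 1 lay lowest. Nrg1 was well above background on 2 of 3 adult arrays, and its difference was -1.59 with quantile normalization. Egf stood just past the threshold at -0.55 (SE 0.16, limma adjusted p = 0.0485), and with median scaling it stood at -0.25 (limma adjusted p = 0.427). Hbegf, heparin-binding EGF, stood at -0.72 (SE 0.29, limma adjusted p = 0.105).

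Tgfa, transforming growth factor alpha, stood at 0.26 (SE 0.43, limma adjusted p = 0.632), with adult array 1 at -1.19 and the other adult arrays at -2.32 and -2.33. Without adult array 1 Tgfa stood at -0.31 (limma adjusted p = 0.0835). Btc, betacellulin, was well above background on 1 adult and 2 P10 arrays and was not tested.

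Of the receptors, Erbb2 and Erbb3 were lower in adults and Egfr did not pass. Erbb2, which has no ligand of its own and pairs with the other receptors, read -4.86, -4.94 and -4.44 in adults and -3.37, -3.02 and -3.05 at P10. All P10 arrays were higher, with a difference of -1.65 (SE 0.15, limma adjusted p = 0.00354). Erbb3, the neuregulin receptor with an impaired kinase, read -7.76, -7.69 and -8.68 in adults and -4.75, -4.70 and -4.80 at P10. It was not well above background on any adult array and was at least 7.83-fold higher at P10 (limma adjusted p = 0.00193). With normexp the Erbb3 difference was -1.29 (limma adjusted p = 0.0696), so this bound too depends on the background correction. Nrg1 and its receptor genes Erbb2 and Erbb3 were thus all lower in adults.

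Egfr, the receptor of Egf, Tgfa and Areg, read -3.79, -3.41 and -3.42 in adults and -3.97, -3.96 and -4.00 at P10. The stages did not overlap, yet the difference of 0.38 (SE 0.18, limma adjusted p = 0.155) did not pass, while with quantile normalization it stood at 0.69 (limma adjusted p = 0.0125). Erbb4 was not well above background on any array.

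Met, the hepatocyte growth factor receptor of epithelium and beta cells, read -4.15, -3.21 and -3.32 in adults and -2.73, -2.93 and -3.10 at P10. The difference was -0.74 (SE 0.35, limma adjusted p = 0.15). Its ligand Hgf, made by mesenchyme, was well above background on 2 adult arrays and 0 P10 arrays and was not tested.

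**Figure D3:**
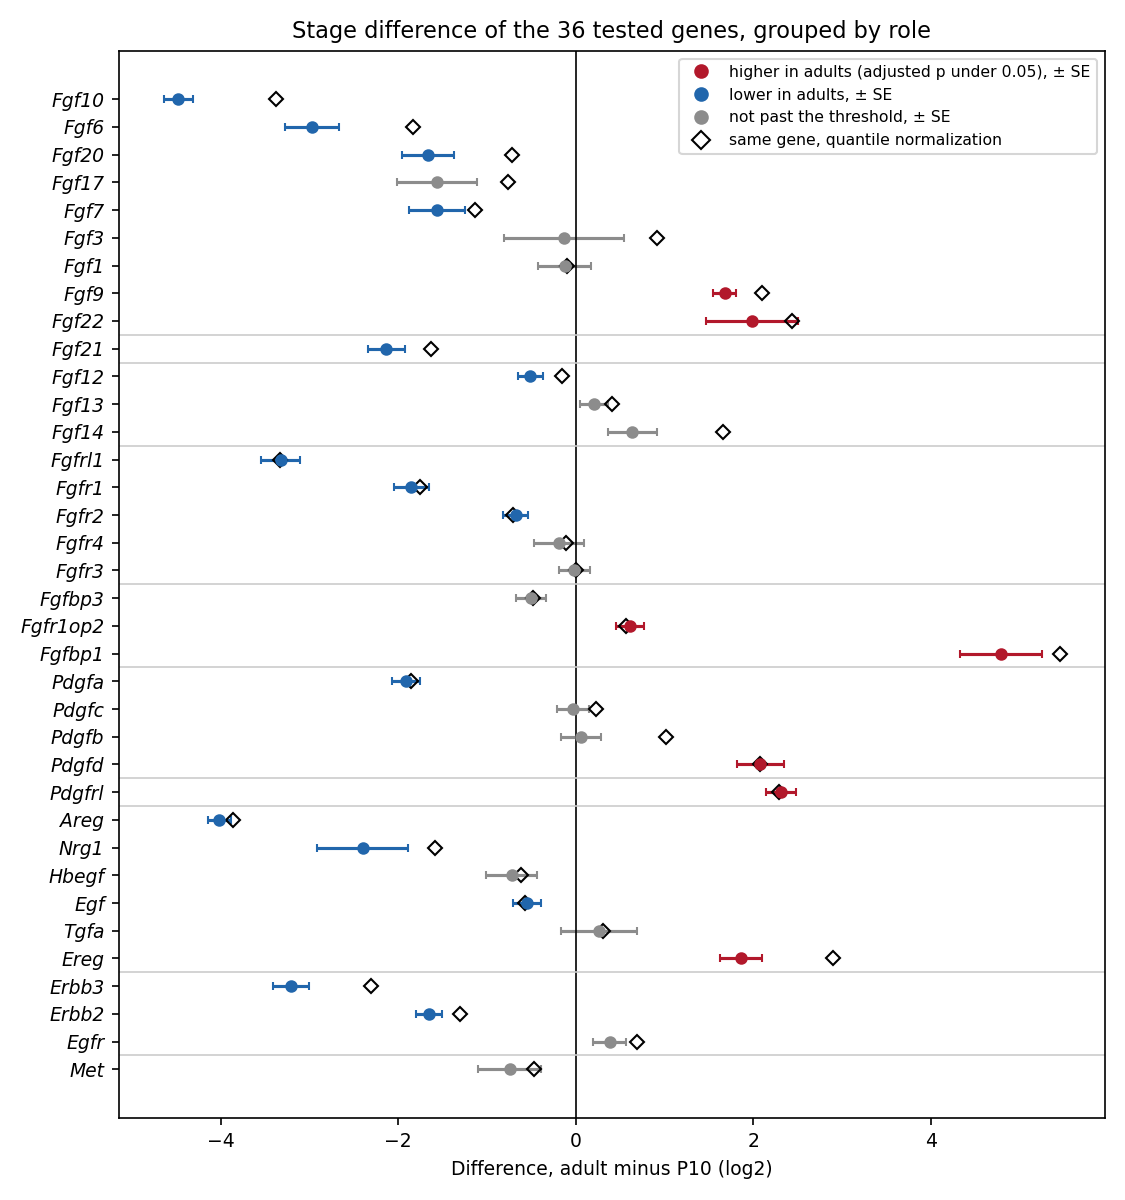
Adult minus P10 difference in log2 of the 36 tested genes, grouped by role, with its standard error (filled circles; red, higher in adults; blue, lower; grey, not past the threshold) and the same difference with quantile normalization (open diamonds). Fgf10, Fgf14, Fgf6, Erbb3, Fgfbp1 and Ereg were at background in 1 stage, so their points are no measured sizes. Genes near background, such as Fgf10, Fgf14 and Pdgfb, shift to the right with quantile normalization, while Fgfrl1, Pdgfa, Pdgfd and Areg hardly move.

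Other genes of the pathway were taken from lists given by role, and their counts stand beside 21.3% of all probes higher and 31.0% lower. Among ERK-induced transcription factors and targets, 6 of 11 were lower in adults and 2 higher, with a median of -0.57. Etv5, an ETS factor used as a readout of FGF receptor signalling, read 0.28, 0.34 and 0.33 in adults and 3.21, 3.27 and 3.25 at P10. The difference was -2.94 (SE 0.13, limma adjusted p = 0.00135). Etv1, of the same ETS subfamily, rose by 2.96 (SE 0.16, limma adjusted p = 0.00156), and Egr1, an immediate early gene, stood at -3.68. The readout Etv5 and its relative Etv1 thus moved in opposite directions. Etv4, another readout, was not among the 13 of 14 listed genes found on the array.

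Feedback inhibitors gave 2 lower and 1 higher of 10, with a median of -0.16, both shares below those of all probes. Spry2, a Sprouty inhibitor of RAS signalling, fell by 0.77 on the log2 scale (SE 0.15, limma adjusted p = 0.0201), and Spry4 stood at 0.48 (SE 0.17, limma adjusted p = 0.0806). Dusp6, the ERK phosphatase, stood at -0.07 (SE 0.14, limma adjusted p = 0.693). Spry1, also set as a readout, was not among the listed genes found on the array. Spred2, another RAS inhibitor, was not well above background on any adult array and was at least 8.77-fold higher at P10 (limma adjusted p = 0.00777), and the phosphatase gene Dusp5 rose by 1.43.

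Adaptors and kinases gave 7 lower and 1 higher of 21, with a median of -0.04, or 7 and 4 with quantile normalization. Pik3r1, the regulatory subunit of PI3K, was not well above background on any adult array and was at least 14.2-fold higher at P10 (limma adjusted p = 0.00252). Sos1, a RAS activator well above background on 1 adult array, stood at -2.78, and Map2k1, the ERK kinase MEK1, at 1.20. Ligand handling genes and co-receptors gave 7 lower and 6 higher of 20. Hgfac, the protease that activates HGF, rose by 2.58 (SE 0.21, limma adjusted p = 0.00279), and St14, another such protease, fell by 1.95 on the log2 scale (SE 0.14, limma adjusted p = 0.00233). Of 3 family genes outside the rule, Mst1r, a Met-like receptor, stood at -2.48 and Nrg2 at -1.57, both past the test, and Mst1 did not pass. Mst1r was well above background on 2 of 3 adult arrays. With quantile normalization Nrg2 stood at -1.14 (limma adjusted p = 0.117), and Mst1 passed as higher at 0.55 (limma adjusted p = 0.028).

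Markers of other cells differed on the same arrays, and their part in the results above was not tested. Their counts, here and in the next paragraphs, stand beside 21.3% of all probes higher and 31.0% lower. None of the markers on the array was below background on all 6 arrays. Of 10 fibroblast and stellate markers tested, 5 were lower in adults and 2 higher. Summed signals, where 1 is the array's 75th percentile, run over the 11 on the array. They were 56.2 to 83.5 in adults and 131 to 140 at P10. Vim lacked a value on adult array 3, which gave the 56.2, and Postn on P10 arrays 2 and 3. These sums thus do not cover the same genes on every array. Fgf10, Fgf7 and Fgfr1 were lower in adults too, but a shared direction between adult and P10 arrays does not assign a gene to a cell type. Of 7 pericyte and smooth muscle markers 3 were higher and 0 lower, with sums of 25.0 to 26.9 and 10.5 to 11.2, beside a Pdgfrb difference of -0.37 with marked spots kept.

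All 11 enterocyte markers were lower in adults, with sums of 7.608 to 8.5003 and 297 to 313, and 9 of 11 acinar markers were lower (5 with quantile normalization), with sums of 492 to 694 and 1449 to 1555. Duct markers gave 3 lower and 1 higher of 5, with sums of 37.5 to 44.8 and 76.4 to 80.3. These epithelial lists were mostly lower in adults, and 5 of 10 fibroblast and stellate markers tested were lower. Of the 36 tested member genes 15 were lower, so the values assign none of these genes to 1 list. All 11 leukocyte markers tested were higher in adults, with sums over the 12 on the array of 50.04 to 53.86 and 6.66 to 13.5. The 6.66 is of P10 array 2, which lacked values for Lyz2 and Tyrobp, and Tyrobp was also missing on adult array 2. These sums thus do not cover the same genes on every array. The mature beta cell and Schwann cell lists were also mostly higher. Of the pericyte and smooth muscle markers 3 of 7 were higher, and of the tested member genes 7 of 36. These values thus assign no gene to leukocytes.

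Schwann cell and neuron markers gave 6 higher and 2 lower of 10, with sums of 8.59 to 10.4 and 2.79 to 2.92. Erbb3, itself on that list, was 1 of the 2 that fell. Endothelial markers gave 1 higher and 0 lower of 7, with sums of 44.3 to 53.4 and 36.5 to 37.4. The 5 mature beta cell markers on the array (Slc2a2, Ucn3, Nkx6-1, Pcsk1 and Slc30a8) were well above background on all 6 arrays, as the islet label calls for, and all were higher in adults, with sums of 72.2 to 74.7 and 8.29 to 8.73.

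**Figure D4:**
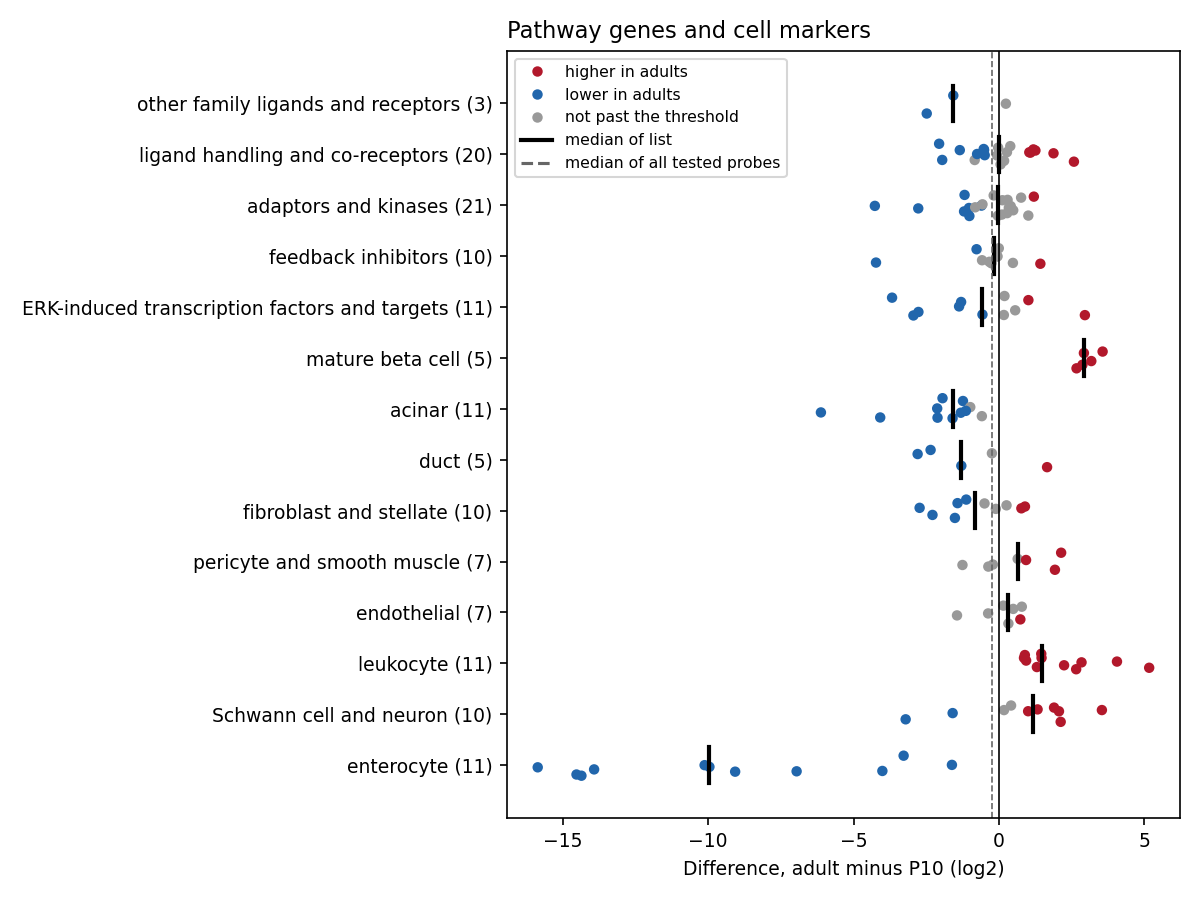
Adult minus P10 difference in log2 of each tested gene of the pathway lists (upper 5 rows) and cell marker lists (lower 9 rows), with the number tested in brackets (red, higher in adults; blue, lower; grey, not past the threshold; black bar, list median; dashed line, median of all tested probes at -0.23). Enterocyte markers lie farthest to the left, with a median of -9.96, and adaptors and kinases centre near 0.

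Judged by scan time, the arrays lay on 2 slides. All P10 arrays shared slide 1 with adult array 1, and slide 2 carried the remaining adult arrays. On slide 1 alone all 22 calls kept their direction and passed, as they did with slide as a block, where 79.8% and 80.9% of all probes passed. Both rest on 1 adult array beside the P10 arrays, and the slide 1 test takes its spread from the P10 arrays alone. Areg stood at -4.00, Fgfrl1 at -3.06, Pdgfa at -2.05 and Pdgfd at 1.75 on slide 1. Without P10 array 3 5 genes were higher and 9 lower, where 22.5% of all probes passed, and Egf, Fgf12, Fgf20, Fgf22, Fgf7, Fgfr1op2, Fgfr2 and Nrg1 did not pass, with limma adjusted p from 0.0503 for Nrg1 to 0.347 for Egf. Egf, Fgf12 and Fgf22 did not pass without adult array 3, nor Egf and Fgf12 without P10 array 2 (limma adjusted p = 0.0525 and 0.0509). Without adult array 1, which leaves 1 adult sample assumed to vary like the P10 samples, 73.2% of all probes passed. Egfr, Fgf14, Fgf17, Fgfbp3 and Hbegf also passed, with limma adjusted p from 0.00272 for Fgf14 to 0.0473 for Fgfbp3. Fgf17 also passed without adult array 2 or P10 array 2. With normexp background correction 26.4% of all probes and 8 genes passed, Fgfbp1, Pdgfd and Pdgfrl as higher and Areg, Erbb2, Fgfr1, Fgfrl1 and Pdgfa as lower, while Fgf10 stood at -1.27 (limma adjusted p = 0.101) and Erbb3 at -1.29 (limma adjusted p = 0.0696).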

How the data were processed

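Each deposited scanner file holds the intensity of every spot on 1 array. The submitters' processing notes name Agilent Feature Extraction, version 11.0.1.1. The processed intensity was background-subtracted and detrended, per the file headers, without scaling across arrays. Normalized log2 values were deposited as well, with the method not given in the sources used here. No column was left unmatched.

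Control spots and spots marked as outliers were left out, the log2 values of a probe's spots were averaged, and each array's 75th percentile was subtracted. Of the 53 member probes 52 are printed once. A probe was tested where each array of 1 stage or both read it as well above background and no counted replicate lacked a value (18362 probes). The fit used limma 3.58.1 (lmFit, then eBayes; R 4.3.3), at an adjusted p of 0.05, and was tested on simulated data. Symbols came from RefSeq accessions of GRCr8.

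Adult arrays 2 and 3, and P10 arrays 1 and 2, were averaged. Between arrays of a stage, variance over that predicted from spots was 1.16 for adult arrays 2 and 3, 15.1 to 18.1 for the other adult pairs and 0.77 to 0.96 at P10. Array differences recurring at 2 probes of 110 genes gave a rho of 0.18 for adult arrays 2 and 3, 0.83 for both other adult pairs and 0.41 to 0.49 at P10, so the P10 pairs were alike and the averaging of arrays 1 and 2 was set from earlier results of these data. Where nothing shows separate RNA, p-values measure only the spread between arrays.

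Slides were told apart by the scan time in the headers alone. Every member may be named, with each array's value for receptors and for genes past the test by at least 2-fold, and at most 3 genes per list plus FGF readouts. Members and lists were chosen with earlier results of these data known. Normexp used median spot and background signals with an offset of 50. Quantile and median scaling, other filters, left-out arrays, blocks, gene means and the authors' values were alternatives.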

Additional observations from a re-analysis of the deposited data

How the results depend on the processing

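The 22 calls kept their direction under every alternative that gave a value, except Ereg at -0.26 with normexp. With 7 genes higher and 15 lower, normexp gave 3 and 5, where 26.4% of all probes passed against 52.3%, and the cause was not tested. Leaving out each array in turn gave 5 to 9 higher and 9 to 18 lower, the lowest without P10 replicate 3, where the lone P10 sample is assumed to vary like the adults and 22.5% of all probes passed. Quantile normalization kept 21 of the 22 calls, median scaling 19, no filter on dim probes 19 and every array as its own replicate 22. The authors' normalized values held 15 of the 22 genes and kept 14. The medians of all tested probes were -0.23, -0.02 with quantile normalization and 0.07 with median scaling. The labels tie no adult replicate number to the P10 pool of the same number, and same-numbered arrays gave correlations of deviations of -0.32, 0.09 and -0.36. With the replicate block, every array as its own replicate, 7 genes were higher and 16 lower, where 63.5% of all probes passed. With marked spots kept, chosen after seeing the data, 7 were higher and 18 lower, where 52.8% passed. Genes near background, such as Fgf10, Fgf6, Erbb3 and Ereg, have only approximate at-least folds.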
